A study of Mus musculus with 6 samples.

Results

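The synaptonemal complex is the protein scaffold that holds homologous chromosomes together along their length in meiotic prophase. SYCP2 and SYCP3 build its lateral elements on the chromosome axis, SYCP1 forms the transverse filaments that bridge the axes, and SYCE1, SYCE2, SYCE3 and TEX12 make up the central element in the middle. The axis is laid down on a meiotic form of cohesin, the ring that tethers sister chromatids, in which SMC1B, STAG3 and REC8 stand in for the SMC1A, STAG1 or STAG2, and RAD21 subunits of somatic cells. In the male germ line the complex begins to form in leptotene and zygotene, is complete in pachytene and comes apart in diplotene. The genes for these 10 proteins (Sycp1, Sycp2, Sycp3, Syce1, Syce2, Syce3, Tex12, Smc1b, Stag3 and Rec8) were taken by name from the 32285 genes in the files, and all 10 had counts in all 6 libraries. What was asked of them is when in germ cell development each one rises, peaks and falls, and whether a fat-rich diet moves its level in any stage.

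The data are single-cell RNA-seq counts from testes of wild-type C57BL/6 males (C57BL/6N in the methods), 8 weeks old, that had eaten a high-fat diet (HFD) for 2 weeks, or a low-fat diet (LFD) as the control. Each diet has 3 libraries, and the methods give 3 mice for each. Testes were dissociated with enzymes to single cells, and the methods describe no sort. Diet was taken from the sample titles and treatment labels. Each of the 6 file names carries the other diet, so if the file names were right, every difference between the diets below would change sign, while the values by stage would stay as they are. The libraries hold 5753 to 11095 barcodes and 39196921 to 95845514 unique molecular identifiers (UMIs, each one a counted RNA molecule), with medians of 2155 to 3422 UMIs per barcode. Any 2 libraries share at most 28 barcode sequences.

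Stages were set with markers of other genes, never with a member. Of 48939 barcodes, 15083 (30.8%) held at least 4000 UMIs, and 10815 of these were placed in 1 of 9 gates by the germ cell marker list on which they scored highest. Of these gates 8, with 10645 barcodes, are named as germ cell stages. The numbers were 625 barcodes of differentiating spermatogonia (Kit, Crabp1 and other markers), 587 preleptotene spermatocytes (Stra8, Prdm9), 283 leptotene to zygotene spermatocytes (Dmc1, Meiob), 1624 pachytene spermatocytes (Piwil1, Mybl1), 1111 late spermatocytes (Pou5f2, Aurka), 701 early round spermatids (Ssxb genes), 2580 later round spermatids (Acr, Acrv1) and 3134 elongating spermatids (Prm1, Tnp2). A ninth gate, of 170 barcodes, was set on markers of undifferentiated spermatogonia such as Gfra1 and Zbtb16. Its leading genes included Acta2, Tagln and Myl9, genes of smooth muscle, with only 1 of its 11 markers, Zbtb16, in its top 10. Of the 11 markers, 10 were nevertheless highest in this gate. It is called here the Zbtb16 gate and is given no cell type, so its values are not those of a known stage, and the difference between it and differentiating spermatogonia is a difference between 2 gates. In the gate of later round spermatids none of its 8 markers was among the top 10 genes, although all 8 were highest there. Of the barcodes over the minimum, 4578 (30.4%) lay near the cut that separates the best from the second-best score. Levels are given in CPM (a gene's UMIs summed over a stage within a library, scaled so that all genes add up to 1e6), so the library is the replicate (n = 6), and CPM compares 1 gene between stages, not genes with each other.

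All 10 members lie on autosomes. In GRCm38 (GENCODE vM21) Sycp1 spans chr3:102818499-102936100 on the minus strand, Sycp2 chr2:178345293-178407685 (minus), Sycp3 chr10:88459569-88473236 (plus), Syce1 chr7:140777229-140787852 (minus), Syce2 chr8:84872111-84888221 (plus), Syce3 chr15:89390174-89410503 (minus), Tex12 chr9:50556819-50561325 (minus), Smc1b chr15:85064689-85131964 (minus), Stag3 chr5:138280240-138312393 (plus) and Rec8 chr14:55618037-55625395 (plus). Sycp3 lies inside Chpt1, Syce2 overlaps Gcdh and Tex12 lies inside Il18, in each case on the opposite strand. Whether strand was used in counting is not given in the sources used here, so reads of these pairs cannot be told apart with certainty.

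Because 9 of the members rose together at the start of meiosis, the bases before their start sites are shown for the members that hold a motif of interest, and for Rec8, which did not rise. RefSeq promoter sequences (GRCm38.p6) matched all 10 members, with 12 start sites in all. The 250 bases before each start were searched on both strands for the E2F site GCGGGAA, for the STRA8 motif CNCCTCAG (N is any base) and for the cyclic AMP response element TGACGTCA. The E2F site was found before 1 start site each of Sycp3, Tex12, Smc1b and Syce2, so at 4 of 12, while 3.82% of the 32851 promoters in the table hold it. The STRA8 motif was found at 1 of 12, that of Syce2, where it shares bases with the E2F site, and 6.42% of all promoters hold it. The cyclic AMP response element was found at none of the 12, and 1.55% of all promoters hold it. Sycp1, Sycp2, Syce1, Syce3 and Stag3, which also rose, held none of these motifs before any start site, as was the case for Rec8. A match says only that these letters are there. The sequences run 5′ to 3′ on the strand of the gene, with matched motifs in capitals, and stop where an annotated exon begins (for Syce2, 28 bases around the match, in the first exon):
Sycp3, chr10:88459337-88459568, plus strand: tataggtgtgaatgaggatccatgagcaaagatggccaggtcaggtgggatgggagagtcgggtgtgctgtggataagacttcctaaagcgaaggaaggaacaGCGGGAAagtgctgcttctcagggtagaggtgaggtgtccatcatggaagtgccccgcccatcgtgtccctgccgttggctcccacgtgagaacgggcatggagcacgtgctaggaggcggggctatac
Tex12, chr9:50561326-50561518, minus strand: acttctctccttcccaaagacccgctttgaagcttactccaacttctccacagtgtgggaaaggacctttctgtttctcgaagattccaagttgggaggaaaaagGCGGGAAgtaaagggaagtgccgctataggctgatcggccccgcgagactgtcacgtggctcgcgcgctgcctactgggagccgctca
Smc1b, chr15:85131965-85132077, minus strand (the match reads on the opposite strand): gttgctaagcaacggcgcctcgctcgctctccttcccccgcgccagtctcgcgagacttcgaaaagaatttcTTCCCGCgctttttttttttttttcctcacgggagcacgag
Syce2, chr8:84872213-84872240, plus strand (both motifs, sharing bases): agggcgCTGAGGCGGGAAaagacggaat
Rec8, chr14:55617916-55618036, plus strand (no match): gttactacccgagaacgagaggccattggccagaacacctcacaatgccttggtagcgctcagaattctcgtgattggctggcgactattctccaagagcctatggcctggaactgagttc

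In droplet data, RNA set free from broken cells gives every barcode some UMIs of abundant genes. Each level is therefore set beside that of the 236 barcodes of the Sertoli gate, somatic cells that should lack these genes. That gate held only 11 to 75 barcodes per library. There the 10 members summed to 1314 ± 503 CPM (SD, n = 6), and Prm1, a protamine gene of elongating spermatids, stood at 9158 ± 2407 CPM against 63660 ± 17116 CPM in elongating spermatids. In another somatic gate, of 94 macrophage barcodes and not tested, the members summed to 1375 ± 522 CPM. The summed level of the members was 1485 ± 128 CPM in the Zbtb16 gate and 2474 ± 239 in differentiating spermatogonia. It was 8129 ± 1010 in preleptotene, 7996 ± 1319 in leptotene to zygotene and 4047 ± 511 in pachytene. From late spermatocytes on it lay between 1318 ± 223 and 1975 ± 161 CPM. The value in elongating spermatids was close to that of the Sertoli gate. Taken one by one, however, the members followed different courses after pachytene.

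**Figure D1:**
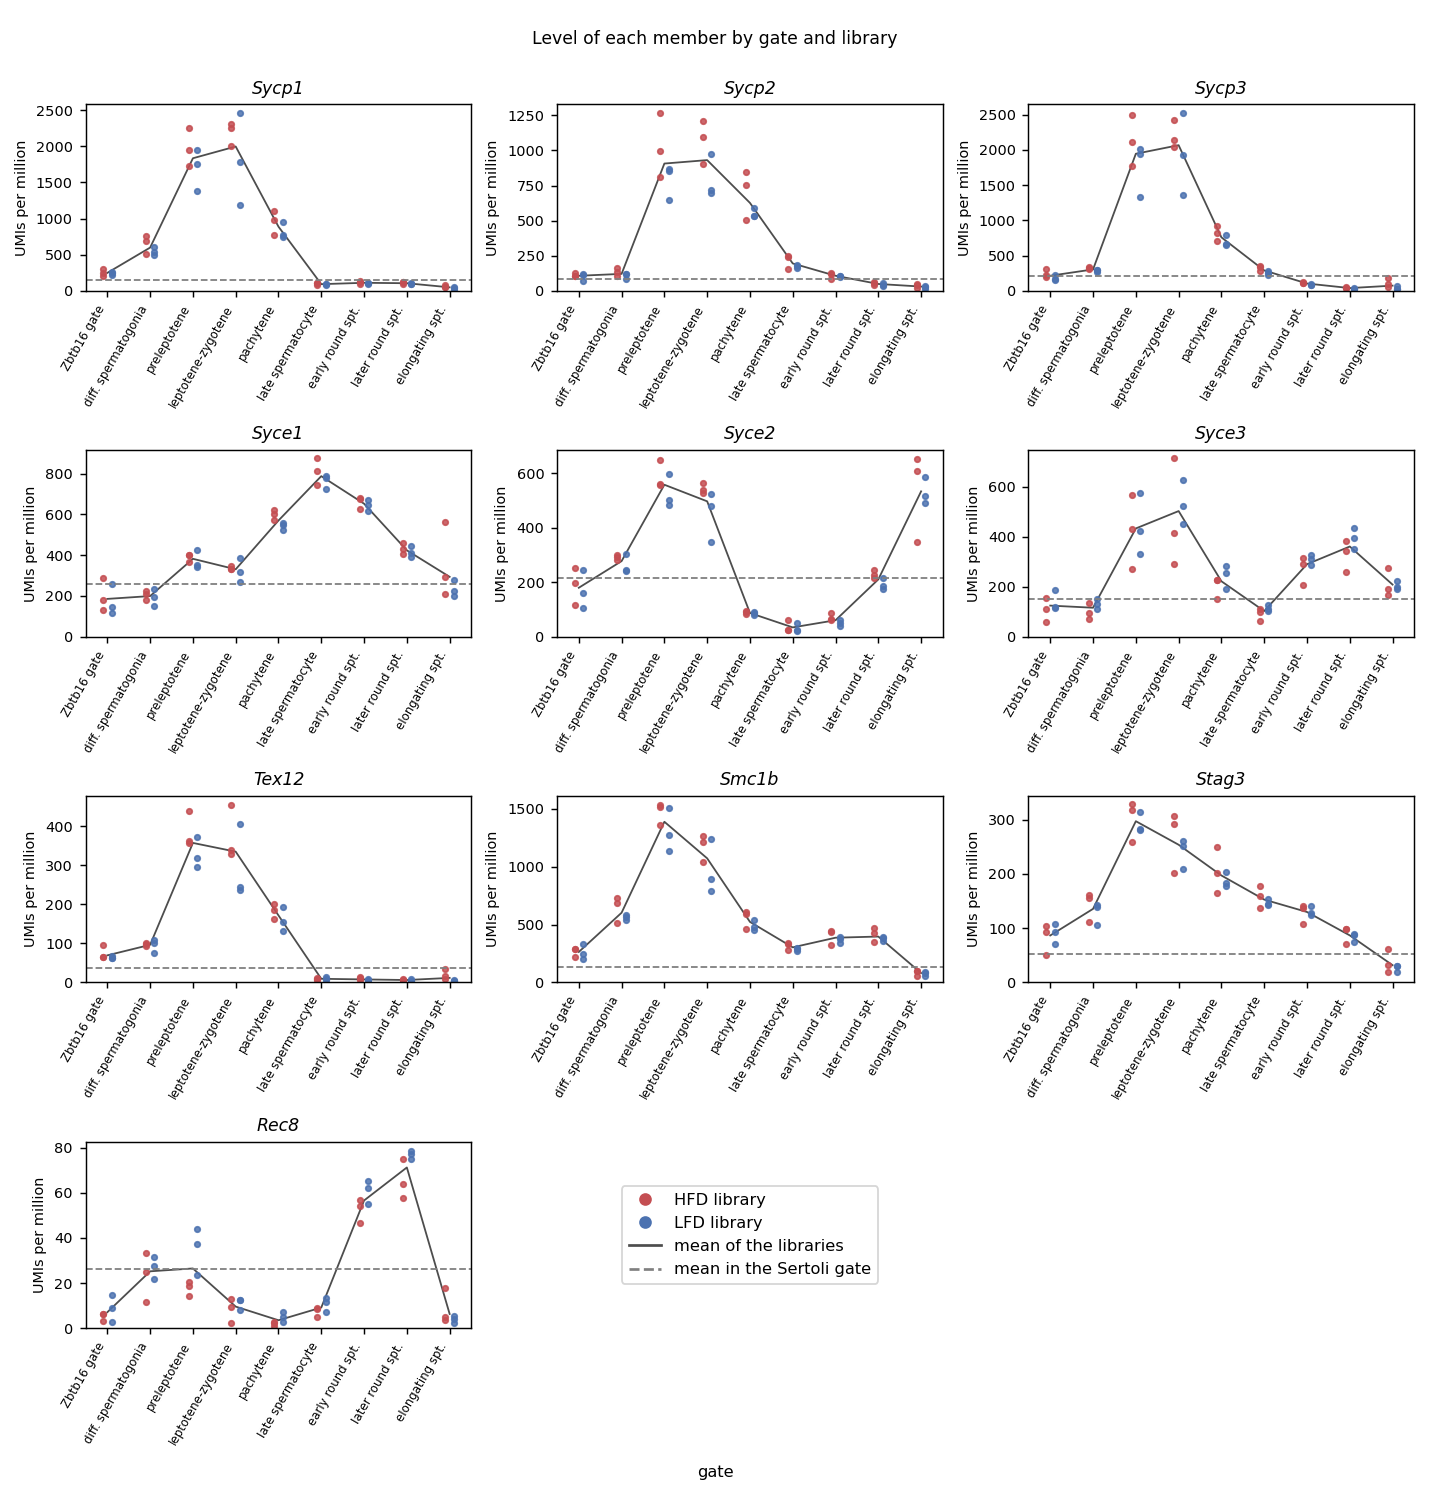
Level of each member in CPM (vertical axis, from 0, its own scale in each panel) over the 9 gates (horizontal axis), with 1 point per library coloured by diet, a line through the means of 6 libraries and a dashed line at the mean in the Sertoli gate. Sycp1, Sycp2, Sycp3 and Tex12 are high from preleptotene to pachytene, Syce1 is highest in late spermatocytes, Syce2 and Syce3 are high at the start of meiosis and again in spermatids, and Rec8 is highest in round spermatids.

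Between the Zbtb16 gate and differentiating spermatogonia 5 members differed. Smc1b, the meiotic partner of SMC3, was at 204, 264 and 333 CPM in the Zbtb16 gate (lowest, median and highest library) and at 513, 574 and 726 CPM in differentiating spermatogonia. The groups do not overlap, and the log2 difference was 1.00 ± 0.11 (SE; adjusted P = 2.2e-08, edgeR quasi-likelihood test with library as a block, Benjamini-Hochberg over all genes tested). Sycp1, the transverse filament gene, was at 208, 248 and 303 CPM in the first and at 500, 571 and 754 CPM in the second, a log2 difference of 1.04 ± 0.11 (adjusted P = 2.9e-08). Here too every library of differentiating spermatogonia lay above every library of the Zbtb16 gate. Stag3 (0.50 ± 0.14), Syce2 (0.44 ± 0.13) and Sycp3 (0.31 ± 0.12) were also higher in differentiating spermatogonia, so that 5 of the 9 members tested were higher and none was lower, where 20.9% of all 7908 genes tested were higher and 25.3% lower (46.2% in all). The call of Sycp3 was lost without any 1 of 4 libraries (HFD replicates 2 and 3, LFD replicates 1 and 3), with adjusted P between 0.051 and 0.13, and with DESeq2 (adjusted P = 0.070). Sycp2 (-0.02 ± 0.13), Syce1, Syce3 and Tex12 did not pass the test, and Rec8 had too few counts to be tested. Syce3 was called lower with doublets left out (-0.41, adjusted P = 0.0094), and Tex12 was called higher with no filter on low counts (0.48, adjusted P = 0.022).

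Set against the Sertoli gate, a comparison added after the data had been seen, 4 of 10 members were higher and 2 lower in differentiating spermatogonia. The higher ones were Smc1b (log2 difference 1.89 ± 0.21), Sycp1 (1.78 ± 0.32), Stag3 (1.06 ± 0.22) and Tex12 (1.03 ± 0.32). Syce1 (-0.55 ± 0.21, adjusted P = 0.022) and Syce3 (-0.59 ± 0.25, adjusted P = 0.037) were lower. Of all genes tested 36.3% were higher and 33.8% lower, so the count of higher members was near the background. Sycp3, at 304 ± 22 CPM against 205 ± 112 in the Sertoli gate, did not pass that test (0.34 ± 0.24, adjusted P = 0.20). Nor did Sycp2 (0.15 ± 0.24, adjusted P = 0.58), so the lateral element genes did not stand out from this background. In the Zbtb16 gate 1 of the 9 members tested, Smc1b, was higher than in the Sertoli gate (0.80 ± 0.21), and 1 was lower. There 26.2% of all genes tested were higher and 31.3% lower.

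Entry into meiosis brought the largest joint rise. From differentiating spermatogonia to preleptotene 9 of the 10 members rose and Rec8 did not pass the test (log2 change -0.07 ± 0.20), while 34.5% of the 9183 genes tested rose and 34.9% fell (69.5% in all). The median change was 1.36 for the members and 0.03 for all genes tested. The lateral element genes moved furthest. Sycp2 went from 82.2, 121 and 160 CPM to 650, 860 and 1265 CPM, a log2 change of 2.88 ± 0.08 (adjusted P = 1.6e-45). Sycp3 went from 270, 303 and 332 CPM to 1338, 1980 and 2494 CPM, a log2 change of 2.63 ± 0.06 (adjusted P = 9.5e-49). In both genes every preleptotene library lay far above every library of the stage before.

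The central element genes Tex12 (1.85 ± 0.08) and Syce3 (1.85 ± 0.08) rose at the same step, as did Sycp1 (1.58 ± 0.06). The cohesin genes Smc1b (1.15 ± 0.05) and Stag3 (1.08 ± 0.08) rose as well, and so did Syce2 (0.95 ± 0.06) and Syce1 (0.87 ± 0.07). Counted per barcode, after each was thinned to 4000 UMIs, 96.3% of preleptotene barcodes held a Sycp3 UMI (98.3% unthinned), against 67.8% of differentiating spermatogonia (90.1% unthinned). In the Sertoli gate the shares were 33.1% and 50.8%, at a median of 8669 UMIs against 7301 in preleptotene. For Rec8 the thinned shares were 8.69% in preleptotene, 10.2% in differentiating spermatogonia and 6.78% in the Sertoli gate.

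From preleptotene to leptotene and zygotene, when the axes form and pairing begins, the levels changed little. Sycp3 stood at 1356, 2090 and 2520 CPM, Sycp1 at 1183, 2130 and 2458 CPM and Sycp2 at 694, 938 and 1208 CPM. All 3 ranges overlap those of preleptotene, and none of the 3 passed the test (log2 changes of 0.13 ± 0.07, 0.15 ± 0.08 and 0.07 ± 0.08). Of 9 members tested, Smc1b fell (-0.34 ± 0.07, adjusted P = 3.1e-04) and Syce3 rose (0.22 ± 0.08, adjusted P = 0.040), where 15.2% of the 6899 genes tested rose and 15.5% fell (30.7% in all). The call of Syce3 was lost without HFD replicate 1 or without LFD replicates 2 or 3, and also with DESeq2, with no filter on low counts and with upper quartile scaling. Without HFD replicate 2, or with a stricter lead of the best marker list, Sycp1 and Sycp3 were called as well, bringing the count to 4. Without HFD replicate 1, LFD replicate 2 or LFD replicate 3 the count was 1.

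The highest mean of each member therefore fell in 1 of 4 places. Sycp1 (1998 ± 467 CPM), Sycp2 (931 ± 204), Sycp3 (2067 ± 415) and Syce3 (502 ± 153) were highest in leptotene to zygotene. Smc1b (1388 ± 163), Stag3 (297 ± 27), Tex12 (358 ± 49) and Syce2 (558 ± 60) were highest in preleptotene. Syce1 was highest in late spermatocytes (788 ± 53 CPM), and Rec8 in later round spermatids (71.2 ± 8.4 CPM). For all of the first 8 but Smc1b and Syce3, the neighbouring early stage did not differ by the test, and the order of those stages is not resolved.

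By pachytene 7 of the 9 members tested had fallen as a share of the counts. At that step 35.3% of the 8867 genes tested fell and 36.4% rose (71.6% in all). The median barcode held 6548 UMIs in leptotene to zygotene and 17673.5 in pachytene. A lower share therefore need not mean fewer molecules per barcode. The largest fall was that of Syce2, whose protein joins TEX12 in the central element: from 347, 526 and 564 CPM in leptotene to zygotene to 79.9, 88.0 and 92.5 CPM in pachytene. The groups lie far apart, with a log2 change of -2.34 ± 0.11 (adjusted P = 6.7e-12). Sycp3 (-1.27 ± 0.10), Sycp1 (-0.99 ± 0.11), Syce3 (-0.98 ± 0.11), Smc1b (-0.86 ± 0.09), Tex12 (-0.78 ± 0.11) and Sycp2 (-0.41 ± 0.10) fell less. The call of Sycp2 was lost with no filter on low counts (-0.09, adjusted P = 0.65). Stag3, at 202, 256 and 307 CPM before and 165, 193 and 249 CPM in pachytene, did not pass the test (-0.18 ± 0.11, adjusted P = 0.14). It was called as falling with the stricter lead (-0.28, adjusted P = 0.041) and with upper quartile scaling (-0.27, adjusted P = 0.040).

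Syce1 went the other way. This central element gene stood at 269, 333 and 385 CPM in leptotene to zygotene, at 522, 565 and 623 CPM in pachytene and at 727, 783 and 878 CPM in late spermatocytes. The 3 ranges do not overlap, and both steps were called (0.96 ± 0.10 and 0.65 ± 0.05, adjusted P = 2.5e-07 and 4.2e-08). In leptotene to zygotene Syce1 did not differ by the test from the Sertoli gate (258 ± 142 CPM, log2 difference 0.12 ± 0.20), while in late spermatocytes it was higher (1.93 ± 0.26).

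**Figure D2:**
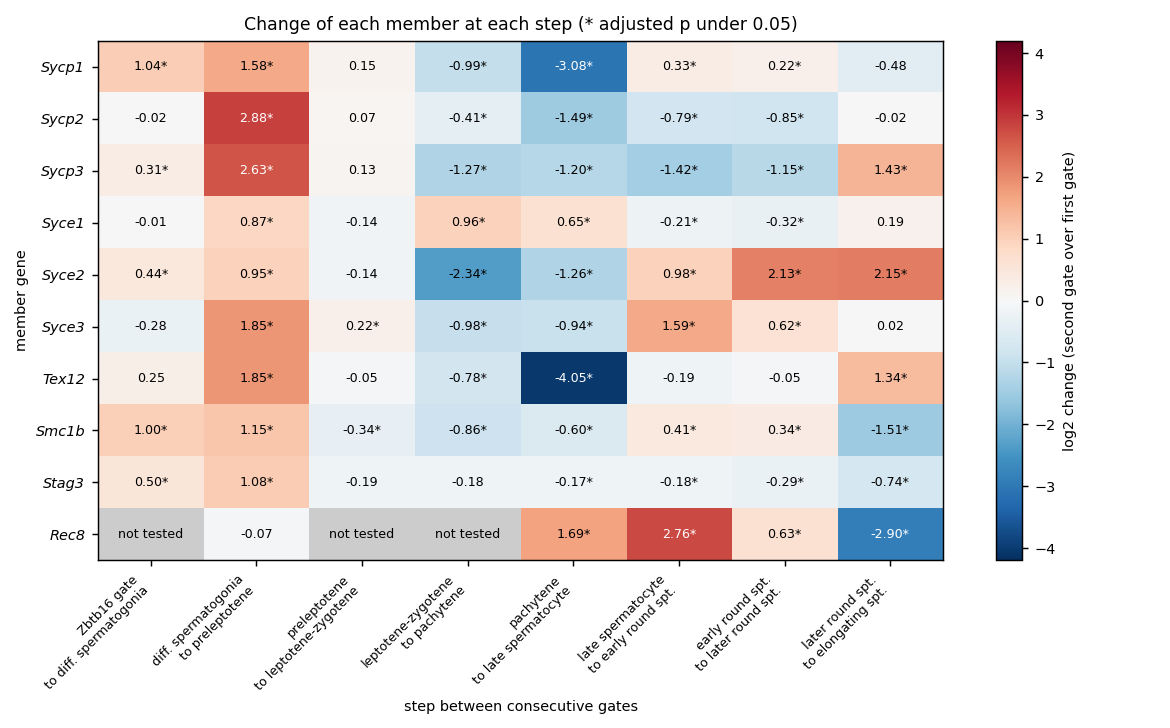
Log2 change of each member (rows) at each of the 8 steps between consecutive gates (columns), red for a rise and blue for a fall, with the value in each cell, an asterisk where the adjusted P was under 0.05 and grey where the gene had too few counts to be tested. The column from differentiating spermatogonia to preleptotene is red for 9 members, and the column from pachytene to late spermatocytes holds the largest falls, -4.05 for Tex12 and -3.08 for Sycp1.

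The loss that comes with the end of pachytene was uneven. From pachytene to late spermatocytes 8 of 10 members fell and 2, Syce1 and Rec8, rose, in a step where 41.2% of the 12339 genes tested fell and 39.1% rose (80.4% in all). Tex12 went from 132, 175 and 200 CPM to 6.32, 8.64 and 12.7 CPM, a log2 change of -4.05 ± 0.11 (adjusted P = 3.6e-12). Sycp1 went from 741, 864 and 1099 CPM to 82.1, 92.0 and 102 CPM, a log2 change of -3.08 ± 0.06 (adjusted P = 8.1e-13). In late spermatocytes Tex12 was below its level in the Sertoli gate (log2 difference -1.80 ± 0.36), and Sycp1 did not differ from it by the test (-0.34 ± 0.38).

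The lateral element genes fell over a longer stretch. Sycp2 fell by 1.49 on the log2 scale (SE 0.05) and Sycp3 by 1.20 (SE 0.05) at this step, and both fell again into early round spermatids (-0.79 ± 0.06 and -1.42 ± 0.06) and later round spermatids (-0.85 ± 0.07 and -1.15 ± 0.08). In late spermatocytes Sycp2 and Sycp3 were still above the Sertoli gate (1.35 ± 0.26 and 0.77 ± 0.28), and in later round spermatids Sycp3 was below it (-1.96 ± 0.29). Stag3, the meiotic partner of the cohesin ring, declined in small steps, with 153 ± 15 CPM in late spermatocytes, 130 ± 13 in early and 86.7 ± 12 in later round spermatids, and 31.8 ± 15.3 in elongating spermatids. Its steps of -0.17 ± 0.05, -0.18 ± 0.05, -0.29 ± 0.05 and -0.74 ± 0.14 were all called.

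Other members rose again after meiosis. Into early round spermatids 5 members were higher and 4 lower, where 36.8% of the 11042 genes tested were higher and 39.9% lower (76.8% in all). Into later round spermatids the counts were again 5 and 4, where 39.2% of the 12857 genes tested were higher and 35.6% lower (74.9% in all). Syce3, the smallest of the central element proteins, stood at 62.7, 106 and 128 CPM in late spermatocytes and at 208, 301 and 328 CPM in early round spermatids. These ranges do not overlap, and the log2 change was 1.59 ± 0.06 (adjusted P = 6.0e-10). It rose again into later round spermatids (0.62 ± 0.04), to 360 ± 60 CPM. After thinning, 74.8% of later round spermatids held a Syce3 UMI (97.0% unthinned) against 36.6% of late spermatocytes (73.6% unthinned) and 31.8% of the Sertoli gate (51.3% unthinned).

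Syce2 rose at 3 steps in a row, by 0.98 ± 0.13 into early round spermatids, 2.13 ± 0.11 into later round spermatids and 2.15 ± 0.24 into elongating spermatids. Its lowest, median and highest library went from 21.7, 24.1 and 60.9 CPM in late spermatocytes to 348, 551 and 653 CPM in elongating spermatids. That second maximum of 534 ± 109 CPM stood beside 558 ± 60 CPM in preleptotene, and 84.1% of elongating spermatids held a Syce2 UMI after thinning (94.7% unthinned), against 38.6% of the Sertoli gate (59.3% unthinned). Gcdh, the gene that overlaps Syce2 on the other strand, was at 0.27 ± 0.22 CPM in elongating spermatids. Changes at every step are relative to the other genes. At this last step protamine and transition protein transcripts take a large share of the counts in elongating spermatids. The scaling factors allow for this, so that a gene with fewer CPM need not fall in the test.

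Rec8, the kleisin of meiotic cohesin, had the lowest counts of the 10 where the complex forms. It stood at 2.32, 10.9 and 12.9 CPM in leptotene to zygotene, on 21 UMIs in all 6 libraries, and at 1.07, 2.79 and 7.20 CPM in pachytene, on 142 UMIs, and it was below the Sertoli gate in pachytene (-3.17 ± 0.47). It then rose to 46.7, 55.7 and 65.1 CPM in early round spermatids and 57.7, 74.9 and 78.7 CPM in later round spermatids, with log2 changes of 2.76 ± 0.13 and 0.63 ± 0.07 (adjusted P = 2.3e-09 and 5.5e-06). All libraries of both round spermatid stages lay above all libraries of the 3 stages before. In elongating spermatids it fell by 2.90 (SE 0.29), to 6.3 ± 5.7 CPM. Thinned shares followed the same order, with 2.83% of pachytene barcodes and 25.8% of later round spermatids holding a Rec8 UMI (7.14% and 84.7% unthinned). These counts are per gene and do not say which Rec8 transcript is present.

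Smc1b did not return to background in round spermatids either. It stood at 276, 293 and 340 CPM in late spermatocytes and rose by 0.41 ± 0.04 and 0.34 ± 0.04 at the next steps, to 347, 388 and 474 CPM in later round spermatids. There it was above the Sertoli gate (1.98 ± 0.27), and it fell by 1.51 (SE 0.15) in elongating spermatids. The second of these rises was not called with upper quartile scaling (0.07, adjusted P = 0.088), which shifts the median of all genes at that step by -0.28. Sycp1 was called up at the same 2 steps (0.33 ± 0.05 and 0.22 ± 0.05). Its level of 105 ± 15 CPM in later round spermatids, however, did not differ by the test from the Sertoli gate (0.05 ± 0.36). After thinning, 32.9% of later round spermatids held a Sycp1 UMI (90.3% unthinned), against 22.0% of the Sertoli gate (39.8% unthinned). The mean after thinning was 0.43 UMIs per barcode, against 0.46 in the Sertoli gate. The second step of Sycp1 turned to -0.050 with upper quartile scaling and was not called without LFD replicate 2 (0.13, edgeR adjusted P = 0.059).

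At the last step, into elongating spermatids, Sycp3 (1.43 ± 0.20) and Tex12 (1.34 ± 0.29) were called up together with Syce2, where 31.6% of the 13894 genes tested were higher and 34.1% lower (65.7% in all). Stag3, Smc1b and Rec8, the 3 cohesin members, were called down. Sycp1 (-0.48) was not, but was called down in 5 of the alternatives, that without HFD replicate 1 among them, with values from -0.63 to -0.73. Sycp3 stood at 19.4, 58.7 and 177 CPM in elongating spermatids and Tex12 at 2.61, 6.97 and 33.4 CPM. HFD replicate 2 was the highest library for both genes. That library's elongating gate also had the lowest Prm1 of the 6 (33495 CPM, against 53717 to 78900) and the highest Piwil1, a pachytene marker (56.9 CPM, against 9.87 to 39.1). Their part in the result was not tested, but both calls held without that library. Chpt1, the gene around Sycp3 on the other strand, stood at 80.2 ± 14.3 CPM before this step and at 194 ± 41 CPM after it. Neither Sycp3 nor Tex12 exceeded the Sertoli gate in elongating spermatids (-0.82 ± 0.38 and -1.20 ± 0.45).

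In a single comparison of pachytene with later round spermatids, also added after the data had been seen, the members fell into 3 groups. Tex12 (-4.35 ± 0.14), Sycp3 (-3.84 ± 0.12), Sycp2 (-3.19 ± 0.09), Sycp1 (-2.59 ± 0.07) and Stag3 (-0.70 ± 0.07) were lower in the spermatids. Rec8 (5.02 ± 0.27), Syce2 (1.76 ± 0.08) and Syce3 (1.20 ± 0.06) were higher. Smc1b (0.09 ± 0.05) and Syce1 (0.06 ± 0.07) did not pass the test. In CPM, before the scaling factors, Smc1b went from 523 to 396 and Syce1 from 571 to 424. The groups thus depend on the scaling, and no other scaling was run for this comparison. In this comparison 91.7% of the 14626 genes tested changed.

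The other cohesin subunits took courses of their own. Smc1a and Stag2, both on the X chromosome, whose transcription is shut down in pachytene, dropped to 0.30 ± 0.40 and 0.90 ± 0.44 CPM there, from 30.4 ± 9.3 and 21.2 ± 10.8 CPM in leptotene to zygotene (log2 changes of -6.34 and -4.32). Smc3, on chromosome 19, also fell at that step (-3.95), and all 5 ubiquitous subunits did. Smc1b, which is autosomal, kept 37.7% of its highest mean level in pachytene, and Stag3 kept 66.3%. The meiotic kleisins Rec8 and Rad21l kept 4.95% and 0.23% of theirs. Smc1a kept 0.35%, Stag2 2.03%, Smc3 3.95%, Rad21 6.46% and Stag1 32.7%. Low and high percents thus occurred among meiotic and other subunits alike. Rad21 had already fallen on entry into preleptotene (-2.52), the step at which the other meiotic kleisin, Rad21l, rose by 4.17, from 3.1 ± 2.1 to 68.5 ± 7.7 CPM. Rad21l was at 36.1 ± 12 CPM in leptotene to zygotene and at 0.16 ± 0.16 CPM in pachytene (-7.31). The spermatids showed Stag2 and Smc3 again (log2 changes of 3.17 and 2.15 into early round spermatids), and Smc1a stood at 0.52 to 1.22 CPM from late spermatocytes on.

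**Figure D3:**
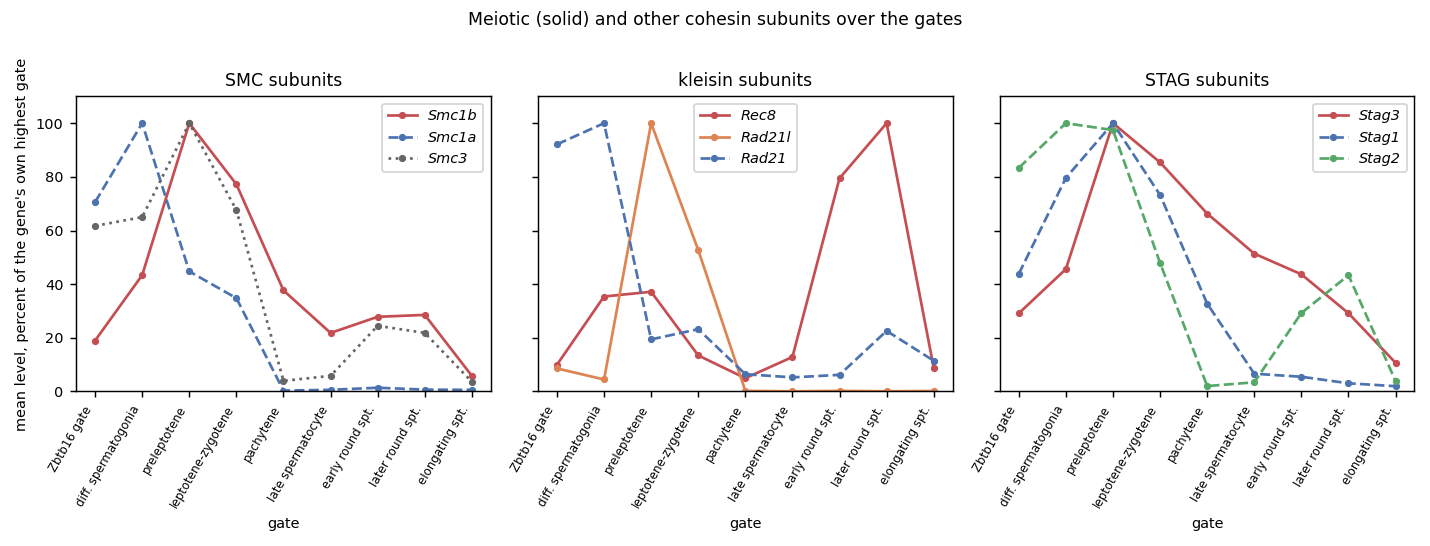
Mean level of cohesin subunits over the 9 gates as a percent of each gene's own highest gate (vertical axis, from 0), in 3 panels for SMC, kleisin and STAG subunits, with meiotic subunits as solid lines. In pachytene Smc1b stands at 37.7%, Stag3 at 66.3% and Stag1 at 32.7% of their highest gate. Rad21l (0.23%), Smc1a (0.35%), Stag2 (2.03%), Smc3 (3.95%), Rec8 (4.95%) and Rad21 (6.46%) stand near 0.

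The wider pathway was described with lists of other genes. All 4 further axis and central region genes (Rad21l, Hormad1, Hormad2 and 4930447C04Rik, the mouse gene for the central element protein SIX6OS1) rose into preleptotene, where 34.5% of all genes tested rose and 34.9% fell, with Hormad1, which marks unsynapsed axes, at 2.73 and Hormad2 at 2.33. All 4 fell into pachytene, where 35.3% of all genes fell, and 3 of 3 tested fell into late spermatocytes, where 41.2% did, 4930447C04Rik by 3.92. All 6 genes of telomere attachment and chromosome movement found in the files rose into preleptotene, led by Terb1 (3.19), Spdya (2.51) and Terb2 (2.21), which fix telomeres to the nuclear envelope. Of 8 break and crossover genes tested, 4 rose and 3 fell at that step, shares near those of all genes, with Hfm1, a crossover helicase, at 3.81 and Trip13, which removes HORMA proteins from axes, at -1.20. At the step into late spermatocytes 6 of 7 of them fell, led by Ccnb1ip1 (-4.84) and Hfm1 (-3.29). Of 13 genes of cohesin loading, release and protection, 6 fell and 4 rose into pachytene, near the 35.3% and 36.4% of all genes. There Pttg1, the securin that restrains separase, rose by 1.27 and Esco2 fell by 3.18. Of these 13, 10 of the 11 tested fell and 1 rose into early round spermatids, where 39.9% of all genes fell and 36.8% rose, led by Sgo2a (-2.18), which protects centromeric REC8.

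Outside the lists, the genes whose stage profile was most like the members' mean profile were Cbwd1 (Pearson r = 0.959 over 9 gates), Zfp653 (0.958), Sugct (0.957), Inca1 (0.957) and Pigp (0.955), all highest in preleptotene or leptotene to zygotene. The r of the single members with that mean ranged from 0.943 for Smc1b and 0.912 for Sycp1 to 0.101 for Rec8 and 0.084 for Syce1. These values share the same 6 libraries and stage gates and are descriptive.

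Diet was compared within each of the 9 gates and over all barcodes, HFD minus LFD, with 3 libraries against 3. None of the 98 tests of a member in a gate or over all barcodes passed an adjusted P of 0.05 (edgeR), the smallest being 0.62. In the same fits 0% of all genes tested were called in any gate or over all barcodes. That 0% depends on the fit: in pachytene 299 genes were called with the replicate number as a block, a term in which same-numbered libraries of the 2 diets are paired, and there same-numbered libraries deviated together (r of 0.44, 0.22 and 0.21). Without HFD replicate 1, 504 genes were called in early round spermatids and 385 in later round spermatids. At the unadjusted level 14 of the 98 member tests (14.3%) were under 0.05, against 3.91% of the tests of all genes, with 1.03% to 7.94% of all genes in the single comparisons. Of the 98 estimates 77 were above 0 and 21 below, and the median change was 0.09 to 0.40 for the members and -0.03 to 0.02 for all genes. The tests of a member share libraries, and members share cells, so these counts are not independent.

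**Figure D4:**
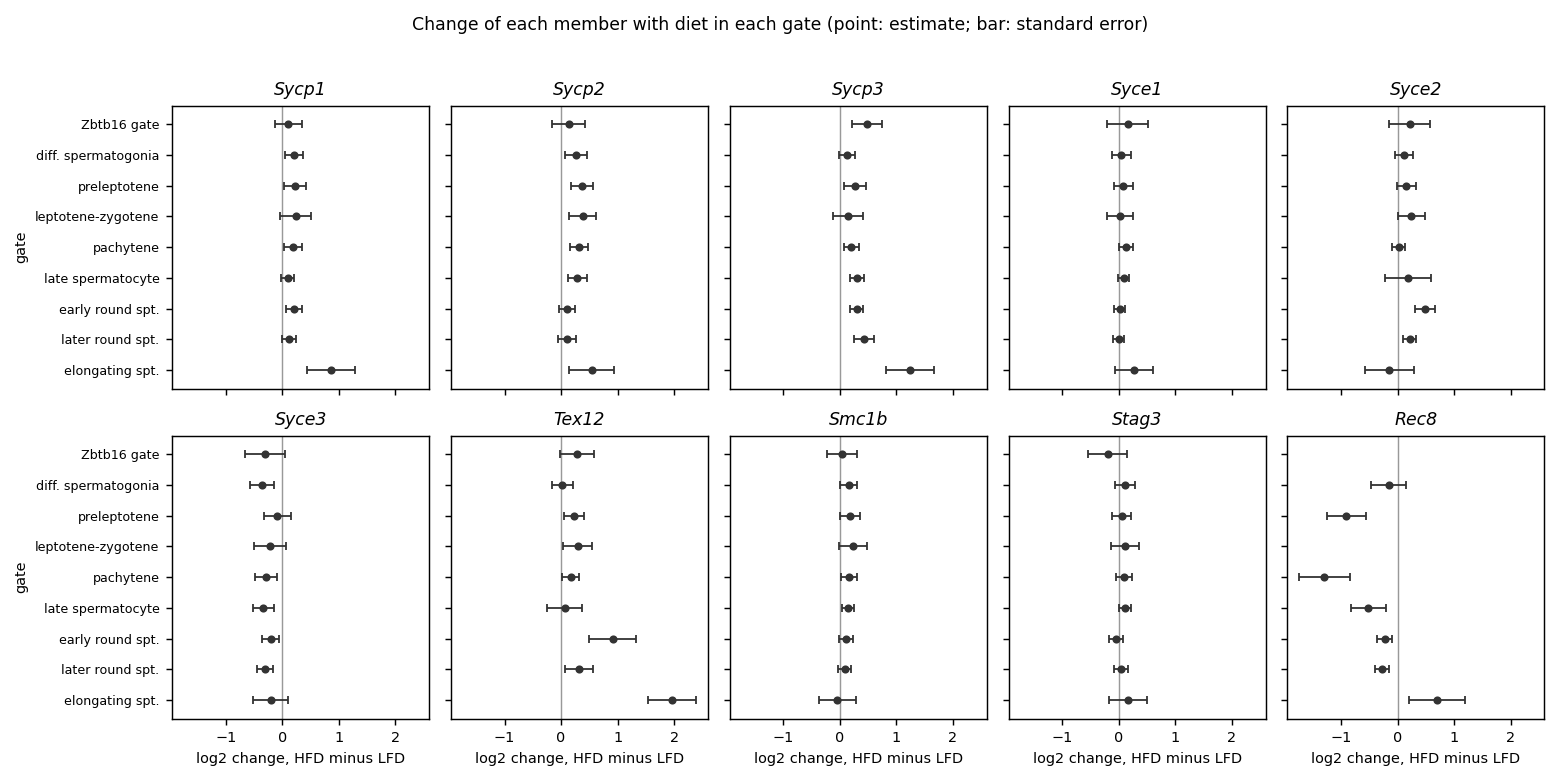
Log2 change with diet (HFD minus LFD, horizontal axis) of each member in each gate (vertical axis), with points for the edgeR estimate and bars for its standard error. Syce3 lies below 0 and Sycp3 above 0 in every gate, and the estimates farthest from 0 are Tex12 in elongating spermatids (1.96) and Rec8 in pachytene (-1.30).

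The diets overlapped for Sycp3 and Sycp1 in leptotene to zygotene, where both are highest, and for Sycp2 in pachytene. Rec8 did not overlap between the diets in its own highest gate, later round spermatids. In leptotene to zygotene Sycp3 was at 2417, 2143 and 2038 CPM in the HFD libraries and at 2520, 1926 and 1356 CPM in the LFD libraries. Sycp1 there was at 2311, 2003 and 2257 CPM in HFD and at 2458, 1778 and 1183 CPM in LFD. In both genes the lowest value belonged to LFD replicate 3, the shallowest library, and the highest to LFD replicate 1. In pachytene Sycp2 was at 505, 849 and 751 CPM in HFD and 591, 530 and 531 CPM in LFD, with HFD replicate 1 the lowest of the 6. Its log2 change of 0.32 ± 0.16 did not pass the test.

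Some members were separated by diet in single stages. Sycp3 in early round spermatids was at 108, 117 and 118 CPM in HFD and 88.8, 99.8 and 88.3 CPM in LFD, a log2 change of 0.30 ± 0.11 (unadjusted P = 0.020, adjusted P = 0.62). Rec8 in preleptotene was at 20.6, 14.1 and 18.9 CPM in HFD and 37.5, 23.7 and 44.0 CPM in LFD (-0.91 ± 0.34, adjusted P = 0.98). Tex12 in elongating spermatids was at 8.84, 33.4 and 16.2 CPM in HFD and 3.49, 5.11 and 2.61 CPM in LFD (1.96 ± 0.42, unadjusted P = 0.00066, adjusted P = 0.81). These are low levels in a stage where Tex12 lies under the Sertoli gate, and HFD replicate 2 is again the highest. Without it the log2 change was 1.60 ± 0.35. With the replicate number as a block Tex12 was called in elongating spermatids (1.88, adjusted P = 0.040), as it was with no filter on low counts (1.99, adjusted P = 0.032). Rec8 in pachytene, at 1.07, 2.84 and 2.23 CPM in HFD and 2.75, 7.20 and 5.07 CPM in LFD (-1.30 ± 0.45, adjusted P = 0.85), was called with the block as well (-1.33, adjusted P = 0.025). The labels do not say that a number marks a shared day or batch. Over the 9 gates and all barcodes, the diets did not overlap in 10 of 100 sets of values, and this held for 8.44% of the sets of all genes with at least 60 UMIs, so the members lay near the background. The 10 sets were Sycp3 in differentiating spermatogonia (8.19% of all genes there), Rec8 in preleptotene (8.53%), Syce2 in leptotene to zygotene (7.35%), Syce1 in pachytene (9.32%), Sycp3 in early round spermatids (13.3%), Syce2 and Rec8 in later round spermatids (8.92%), Sycp1 and Tex12 in elongating spermatids (6.36%) and Rec8 over all barcodes (6.66%).

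Syce3 and Sycp3 showed the steadiest signs. Syce3 was lower in HFD by the estimate in all 9 gates, from -0.08 ± 0.23 in preleptotene to -0.36 ± 0.21 in differentiating spermatogonia, and no stage was past an unadjusted P of 0.05. HFD replicate 3 had the lowest Syce3 of the 6 libraries in all 9 gates, while the other 2 HFD libraries overlapped LFD in each. Sycp3 was higher in HFD by the estimate in all 9 gates, from 0.13 ± 0.14 in differentiating spermatogonia to 1.24 ± 0.43 in elongating spermatids, with HFD replicate 2 highest in 6 stages and LFD replicate 3 lowest in 6.

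Over all barcodes 5 of the 10 members had an unadjusted P under 0.05, against 2.27% of the 20727 genes tested, namely Tex12 (0.60 ± 0.26), Sycp3 (0.58 ± 0.24), Sycp2 (0.56 ± 0.22), Sycp1 (0.45 ± 0.20) and Rec8 (-0.39 ± 0.17), all with an adjusted P of 0.99. Sycp3 was at 247, 355 and 333 CPM in HFD and 229, 278 and 142 CPM in LFD over all barcodes. In such sums more cells of a stage and more RNA per cell cannot be told apart. The 4 spermatocyte gates held 22.6%, 33.1% and 46.9% of the barcodes in the 9 gates in HFD and 25.7%, 49.1% and 29.8% in LFD, with means of 34.2% and 34.9%, so these shares spread more within a diet than between the means.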

How the data were processed

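The deposited matrices hold raw UMI counts per gene and barcode, which the authors made with Cell Ranger 6.0.1 on mm10 and filtered to cell barcodes. The kit chemistry is given differently in the labels and in the methods. No barcode fell outside the stated limits of 200 to 40000 genes. Barcodes with at least 4000 UMIs were scored on 11 marker lists (mean of clipped z-scores of log-normalized counts, 79 markers, no member among them) and placed by their best list if it scored at least 0.5 and led by at least 0.25. This rule was set after the data had been looked at. Probable doublets (highest Scrublet scores in each library, scanpy 1.11.5, their number set from its count of barcodes, 6.86% of all) were kept in the main result and left out in an alternative. Counts were summed per library and stage and tested with edgeR 4.0.16 (TMM, filterByExpr, quasi-likelihood test, Benjamini-Hochberg), stage steps with library as a block and diet without a covariate. A gate with under 10 barcodes in a library (macrophages) was not tested. Thinned shares draw 4000 UMIs per barcode. The fits were tested on simulated data. The median standard error of the members' diet changes within a stage was 0.13 to 0.41 on the log2 scale. It did not follow depth alone. The largest was in elongating spermatids, with 55703067 UMIs, against 0.30 in the Zbtb16 gate, with 1916601 UMIs. What sets it was not tested. Alternatives were DESeq2 1.42.0, upper quartile scaling, no count filter, 8000 UMIs, a lead of 0.5, doublets left out and each library left out. The members, gene lists and tests were chosen with earlier results of these data known. The text names the 10 members, up to 4 called genes of a list by size of change at the steps described, and the 5 genes most like the members' mean profile. Kash5, Iho1 and Hei10 are in the files under their other names Ccdc155, Ccdc36 and Ccnb1ip1.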

Additional observations from a re-analysis of the deposited data

Results flagged for a closer look

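Among 90 sets of 6 libraries (10 members in 9 stages), 5 had a library that stood apart from the other 5 by Dixon's test. Chance flags about 1 in 20 such sets. In elongating spermatids HFD replicate 2 was the highest library for Syce1 (563 CPM, with the others at 198 to 292), Stag3 (61.0 CPM, with the others at 19.2 to 31.4) and Rec8 (17.7 CPM, with the others at 2.24 to 5.31). In early round spermatids HFD replicate 3 was the lowest for Syce3 (208 CPM, with the others at 286 to 328). In the Zbtb16 gate HFD replicate 1 was the highest for Tex12 (95.5 CPM, with the others at 61.7 to 68.3).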

How the results depend on the processing

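Of 77 member changes between stages, 1 turned direction under an alternative: Sycp1 from early to later round spermatids, at -0.050 with upper quartile scaling. The count of members called from preleptotene to leptotene and zygotene was 2 and became 1 with DESeq2 or upper quartile scaling, 4 with the stricter lead and 1 to 4 without 1 library. Leaving out 1 library gave 4 to 5 calls into differentiating spermatogonia, 9 into preleptotene, 8 to 9 into pachytene, 10 into late spermatocytes, 9 into early round, 8 to 9 into later round and 6 to 7 into elongating spermatids. The peak of Syce1 was 678 CPM as a mean over barcodes, and those of Syce2 and Smc1b were 448 and 1171 CPM with 8000 UMIs. Members called by diet numbered 0, but 1 with no count filter (Tex12 in elongating spermatids) and 2 with the replicate number as a block (the same, and Rec8 in pachytene, -1.33). Same-numbered libraries deviated together unevenly: r was 0.49, 0.03 and 0.26 over all barcodes, where the numbers were judged, but 0.44, 0.22 and 0.21 in pachytene and 0.45, 0.49 and 0.12 in elongating spermatids, the stages of those calls. The reported fit has no replicate block. HFD libraries matched the LFD library of their own number best in most cases, but not in every stage. In pachytene all 3 did, in elongating spermatids replicates 1 and 2, and over all barcodes replicates 1 and 3. Whether the numbers mark true pairs was not tested. Over all genes, diet calls went from 0 to 504 in early and 385 in later round spermatids without HFD replicate 1. They went to 28 in pachytene with DESeq2. With the block they were 299 in pachytene and 88 in early round spermatids. With no count filter they were 228 in pachytene and 88 in early round spermatids, with smaller counts in other gates. With 8000 UMIs the Zbtb16 gate and leptotene to zygotene gave no value, nor did the former with the stricter lead. The limits are the 283 leptotene to zygotene barcodes, the low counts of Rec8 and free RNA.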
